A study of Mus musculus with 16 samples.

Results

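The nuclear genes for the mitochondrial ribosome and for the translocases that bring proteins into mitochondria were examined in mouse liver. Members were taken by symbol, as the genes whose name begins with Mrpl, Mrps, Tomm or Timm followed by a digit, with 5 pseudogenes left out. This gave 104 genes of the 55416 listed. They divide into 51 genes of the large ribosomal subunit, 26 of the small subunit, 9 of the translocase of the outer membrane (TOM), 6 of the TIM23 translocase of the inner membrane, and 9 of the TIM22 translocase with the small TIM chaperones. Mrps30 and Mrps18a stand with the large subunit, where their proteins sit in spite of the symbol. Mrps36 was kept apart, because its protein is now known as a subunit of the 2-oxoglutarate dehydrogenase complex. The other 2 were Tomm34, which encodes a cytosolic co-chaperone, and Tomm6os, an antisense transcript.

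The mitochondrial ribosome translates the 13 mRNAs of the mitochondrial genome, which encode core subunits of the respiratory chain and of ATP synthase. Its own proteins are made in the cytosol. Like nearly all mitochondrial proteins they enter through the TOM pore, and those with a cleavable presequence go on through TIM23 into the matrix. Carriers of the inner membrane are instead handed by the small TIM chaperones to TIM22. The liver is rich in mitochondria, which house fatty acid oxidation and ketogenesis, pathways driven by the nuclear receptor PPARα.

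The mice were wild-type C57BL/6J, 8 weeks old, and each received an adenovirus through the tail vein. Ad-CTRL was the control virus and Ad-FAT10 carried FAT10, a ubiquitin-like modifier (gene Ubd), at the same number of genome copies. After 4 days, the vehicle CMC or 1 mpk (mg per kg) of pemafibrate (Pema), a selective PPARα agonist, was gavaged 18 h and 5 h before the liver was taken, and all mice were fasted for the last 5 h. Crossing virus with oral treatment gave 4 groups of 4 mice each, named below by both, such as Ad-FAT10 CMC. Every mouse carried a vector, no uninfected group enters the comparisons, and the labels give no measure of viral load. An effect of FAT10 itself therefore cannot be told apart from a difference in response to the Ad-FAT10 and Ad-CTRL vectors. The title of the series asks which liver genes respond to pemafibrate when FAT10 is overexpressed.

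Poly(A) RNA of each liver was sequenced with strand marking, and library totals ran from 18663498 to 28898229 counts. Levels below are in CPM, counts scaled to library size, after TMM scaling, a scaling of library sizes that places the typical gene near no change. Ubd, the targeted gene, ran from 8.64 to 47.8 CPM over the 8 Ad-CTRL livers and from 110 to 546 CPM over the 8 Ad-FAT10 livers, without overlap. In Ad-CTRL livers it ran from 8.64 to 15.2 CPM under CMC and from 14.2 to 47.8 CPM under pemafibrate. In Ad-FAT10 livers it ran from 110 to 339 CPM under CMC and from 391 to 546 CPM under pemafibrate, again without overlap. The Ad-FAT10 groups compared for the drug, and in the interaction, thus differ in Ubd level as well as in drug. Summed levels of 8 hepatocyte markers were 99608 ± 11779 CPM in Ad-CTRL CMC livers (SD, n = 4), and hepatocyte markers were the most abundant of the cell type lists in all 16. Bulk RNA cannot tell fewer cells of a type from less RNA per cell.

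Of the 104 members, 99 had enough counts to be tested. The untested ones were Mrpl53 (listed at 0 in all 16 libraries), Timm8a2 (4 counts in all), Tomm6 (6 counts), Tomm20l (7 counts) and Tomm6os (66 counts). In GENCODE M21, 88.0% of the exon bases of Mrpl53 and 76.0% of those of Tomm6 also belong to another gene on the same strand, so their low counts are no measure of their expression. Exon length was taken as the union of all exons annotated for a gene, which can exceed the length of the mRNA made in liver. Scaled by this length, the highest member was Mrpl12, a subunit of the ribosome's flexible stalk, at 80.9 CPM per kilobase over all 16 livers. It was followed by the small TIM genes Timm8b (67.9 CPM per kilobase) and Timm13 (47.9 CPM per kilobase). The lowest were Timm10b (0.437 CPM per kilobase) and Mrpl33 (0.460 CPM per kilobase). The medians on this scale were 13.0 for the large subunit, 8.54 for the small subunit, 17.1 for TOM, 14.3 for TIM23 and 14.5 CPM per kilobase for TIM22 and the small TIMs.

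Pemafibrate in Ad-CTRL livers raised 17 members and lowered 2. The largest rises were those of Timm9 and Timm10, whose products form the hexameric chaperone of the intermembrane space. Next by size came the ribosomal genes Mrpl17, Mrps10 and Mrpl16, then Timm22, the channel of carrier import, Mrps22 and Tomm70a, the receptor at which carriers dock. As a background, 16.2% of the 14770 genes tested were called higher and 14.4% lower (edgeR quasi-likelihood test, Benjamini-Hochberg adjusted p under 0.05), against 17.2% and 2.02% of the 99 members. The share called higher is thus close to that of all genes. The median log2 change was 0.14 over the members and -0.01 over all genes, and 76 of the 99 members lay above 0. With library totals in place of TMM the count called higher was 9 and the median of the members 0.06. The 9 were Timm9, Timm10, Mrpl17, Mrps10, Mrpl16, Tomm70a, Mrpl37, Mrps18b and Mrps17.

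Timm9 measured 40.9, 38, 31.3 and 28.4 CPM in the Ad-CTRL CMC livers and 63.3, 55.1, 61.4 and 63.8 CPM with pemafibrate. The groups did not overlap, and Timm9 rose 1.76-fold (log2 0.81 ± 0.14 (SE), adjusted p = 0.000294). Timm10 went from 18.5, 22.0, 16.2 and 14.9 CPM to 32.8, 27.8, 28.2 and 27.3 CPM, again without overlap (log2 0.69 ± 0.14, adjusted p = 0.000987). Tomm70a measured 173, 150, 171 and 144 CPM under CMC and 220, 198, 209 and 219 CPM under pemafibrate (log2 0.41 ± 0.10, adjusted p = 0.00315). Timm22 rose by a log2 of 0.43 ± 0.13 (adjusted p = 0.0199), and Timm29, a subunit of the TIM22 complex, by 0.30 ± 0.08 (adjusted p = 0.00576). Neither Timm22 nor Timm29 was called with library totals. With both, 4 of the 8 tested TIM22 and small TIM genes rose on the TMM scale. Timm13 (log2 0.23, adjusted p = 0.0839), Timm8a1 (0.35, adjusted p = 0.0580), Timm8b (0.28, adjusted p = 0.166) and Timm10b (-0.14, adjusted p = 0.693) did not pass.

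Of the 7 tested TOM genes, Tomm70a alone passed, and of the 6 TIM23 genes, the channel gene Timm23 alone, at a log2 of 0.27 ± 0.10 (adjusted p = 0.0411). The presequence receptor Tomm20 (log2 0.02), the receptor Tomm22 (-0.03), the pore gene Tomm40 (0.20) and Timm50 (0.17), the TIM23 receptor, did not pass. In the ribosome, 7 of 50 tested large subunit genes rose and 1 fell, and 4 of 26 small subunit genes rose and 1 fell. Mrpl17 had the largest rise of the ribosomal genes. It measured 55.2, 55.0, 52.4 and 46.9 CPM under CMC and 78.5, 73.8, 72.4 and 70.2 CPM under pemafibrate (log2 0.49 ± 0.09, adjusted p = 0.000284). The other large subunit genes that rose were Mrpl16 (log2 0.46), Mrpl37 (0.40), Mrpl52 (0.36), Mrpl21 (0.36), Mrpl45 (0.34) and Mrpl13 (0.28). Those of the small subunit were Mrps10 (log2 0.47), Mrps22 (0.42), Mrps18b (0.39) and Mrps17 (0.36).

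Mrpl23 and Mrps26 went the other way. Mrps26 measured 20.8, 19.7, 20.4 and 25.5 CPM under CMC and 18.5, 17.9, 15.3 and 15.8 CPM under pemafibrate, without overlap (log2 -0.36 ± 0.10, adjusted p = 0.0115). Mrpl23 measured 19.1, 16.6, 15.2 and 14.4 CPM and then 14.4, 12.9, 12.1 and 11.2 CPM, with ranges that overlap at their ends (log2 -0.36 ± 0.12, adjusted p = 0.0215). Single libraries decided some of these calls. Mrps22 and Timm22 were not called without Ad-CTRL CMC replicate 4 or without Ad-CTRL Pema replicate 1 (adjusted p up to 0.0757 and 0.0715), Mrpl23 without Ad-CTRL CMC replicate 1 or Ad-CTRL Pema replicates 3 or 4 (up to 0.0828), and Timm23 in 8 of 16 fits that leave out 1 library (up to 0.119).

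**Figure D1:**
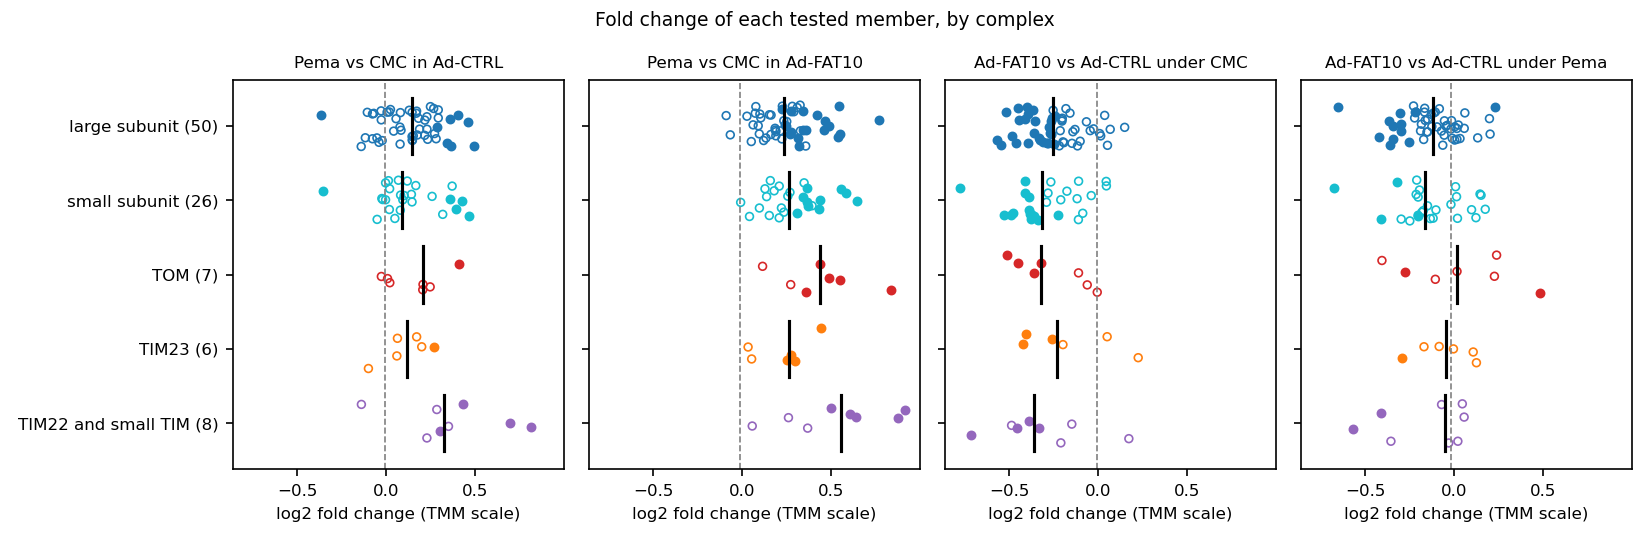
Log2 fold change of each tested member (x axis, TMM scale) by complex (rows, number of genes in brackets) in the 4 comparisons. Filled points passed an adjusted p of 0.05, black bars are medians, and the dashed line is the median of all genes tested. Points lie mostly right of the line for pemafibrate and mostly left of it for Ad-FAT10, where scaling by library totals instead moves the members' median to 0.03 under CMC and 0.24 under Pema.

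Pemafibrate in Ad-FAT10 livers raised 42 of the 99 members and lowered none (edgeR, adjusted p under 0.05; 60 were higher and 0 lower at an unadjusted p under 0.05, and limma-voom and DESeq2 called 0 lower). Among all genes tested, 12.9% were called higher and 12.5% lower, against 42.4% and 0% of the members. The median log2 change was 0.27 over the members, with 95 of 99 above 0, and -0.01 over all genes. By complex, 18 of 50 large subunit genes rose, 10 of 26 small subunit genes, 5 of 7 TOM genes, 4 of 6 TIM23 genes and 5 of 8 TIM22 and small TIM genes. Ribosomal proteins with a bacterial homologue rose in 18 of 46 cases and those particular to mitochondria in 10 of 30. With library totals in place of TMM 37 members were called higher and 0 lower, and their median was 0.25. Tomm20, Timm21, Mrps22 and Mrpl3, called with TMM, were among those not called on library totals.

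Timm9 and Timm10 again had the largest rises, followed by Tomm5, Mrpl17, Mrps6 and Timm22. Timm9 measured 25, 22.1, 29.1 and 24.8 CPM in the Ad-FAT10 CMC livers and 61.9, 43.7, 35.7 and 49.2 CPM with pemafibrate (log2 0.91 ± 0.14, adjusted p = 0.000144). Timm10 went from 11.1, 15.6, 17.5 and 17.6 CPM to 33.1, 27.6, 26 and 26.9 CPM (log2 0.87 ± 0.14, adjusted p = 0.00016). In both genes the groups did not overlap, and replicate 1 was the highest of the pemafibrate livers. Tomm5, a small subunit of the TOM pore, measured 15.9, 18.5, 21.4 and 27.8 CPM under CMC and 42.0, 39.6, 33.3 and 34.9 CPM under pemafibrate (log2 0.84 ± 0.16, adjusted p = 0.000795). Tomm70a rose from 142, 125, 118 and 113 CPM to 189, 170, 154 and 184 CPM (log2 0.49 ± 0.10, adjusted p = 0.000993). Every pemafibrate liver lay above every CMC liver for Tomm5 and for Tomm70a.

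The other TOM genes that passed were Tomm7 (log2 0.55), Tomm40 (0.44) and Tomm20 (0.36), while Tomm22 had 0.27 (adjusted p = 0.0564) and Tomm40l, a paralog of the pore gene, 0.11. In the TIM23 complex Timm23 (log2 0.44), Timm21 (0.30), Timm17a (0.27) and Timm44 (0.25), which tethers the import motor, passed. Timm50 had 0.05 and Timm17b, the other form of the TIM17 subunit, 0.03. Timm22 (log2 0.64), Timm13 (0.61) and Timm8a1 (0.50), a partner of Timm13 in a second small TIM chaperone, rose too, whereas Timm29 had 0.06 (adjusted p = 0.657).

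In the ribosome Mrpl17 had the smallest p. It measured 38.2, 43.7, 47.6 and 43.9 CPM under CMC and 81.8, 76.4, 68.5 and 68.7 CPM under pemafibrate (log2 0.77 ± 0.09, adjusted p = 4.17e-06). Mrps6 (log2 0.64), Mrps18b (0.58), Mrps18c (0.56), Mrpl45 (0.55), Mrpl14 (0.55), Mrpl47 (0.47), Mrpl51 (0.46), Mrpl15 (0.42), Mrps27 (0.37), Mrps14 (0.34), Mrpl46 (0.34), Mrpl57 (0.34), Mrpl30 (0.32), Mrps35 (0.31), Mrpl32 (0.27) and Mrpl3 (0.22) were among those that rose. Mrpl12 (log2 0.31, adjusted p = 0.0620), Mrps18a (0.23, adjusted p = 0.0676), Mrps12 (0.10) and Mrps30 (0.10) did not pass, and Mrps36 stood at 0.00. Exons of Mrps6 overlap those of Slc5a3 on the same strand for 10.4% of their length, so reads of the pair may not be fully separable.

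The 2 pemafibrate comparisons share no library. Of the 17 members called higher in Ad-CTRL livers, 16 (94.1%) were also called higher in Ad-FAT10 livers, where they made up 38.1% of the 42, and Timm29 was the exception. Over all genes tested, 1424 were called higher in both, which is 59.6% of the 2389 called in Ad-CTRL livers and 75.0% of the 1898 called in Ad-FAT10 livers. Whether the members differ from all genes in this was not tested. The 26 members called in Ad-FAT10 livers and not in Ad-CTRL livers are not thereby shown to differ, which is the question of the interaction below. Some of the 42 calls rest on single libraries. The count fell to 28 without Ad-FAT10 CMC replicate 1 and also without Ad-FAT10 Pema replicate 1, and to 23 with both Ad-FAT10 Pema replicates 1 and 3 left out, a check chosen after seeing the data. Tomm20, Mrps10, Mrps14 and Mrpl57 each lost their call without either replicate 1 (adjusted p up to 0.0731, 0.0762, 0.0759 and 0.0629), Mrpl30 also without Ad-FAT10 CMC replicate 4 (up to 0.0895), Timm17a and Timm44 in 3 and 4 of 16 fits (up to 0.0841 and 0.103), Timm21 in 5 (up to 0.116), Mrpl32 in 6 (up to 0.0705), Mrps22 (log2 0.36, adjusted p = 0.0495) in 10 (up to 0.166) and Mrpl3 in 12 (up to 0.106). Mrpl16 lost its call without Ad-FAT10 Pema replicate 2 (adjusted p = 0.0605) and Mrpl37 without Ad-FAT10 Pema replicate 1 (0.0562).

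**Figure D2:**
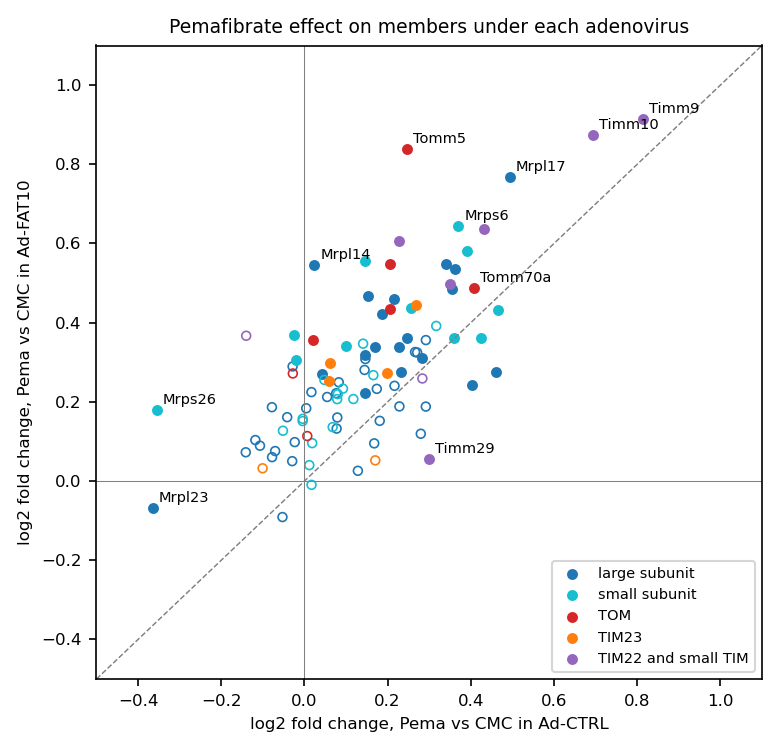
Log2 fold change with pemafibrate in Ad-CTRL livers (x axis) and in Ad-FAT10 livers (y axis) for the tested members of the 5 complexes, coloured by complex. Filled points passed an adjusted p of 0.05 in at least 1 of the comparisons, and the dashed line marks equal change. Above it lie 41 of 50 large subunit, 23 of 26 small subunit, 7 of 7 TOM, 5 of 6 TIM23 and 6 of 8 TIM22 and small TIM genes. None of these differences passed the interaction test in edgeR, while DESeq2 called 1 member.

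**Figure D3:**
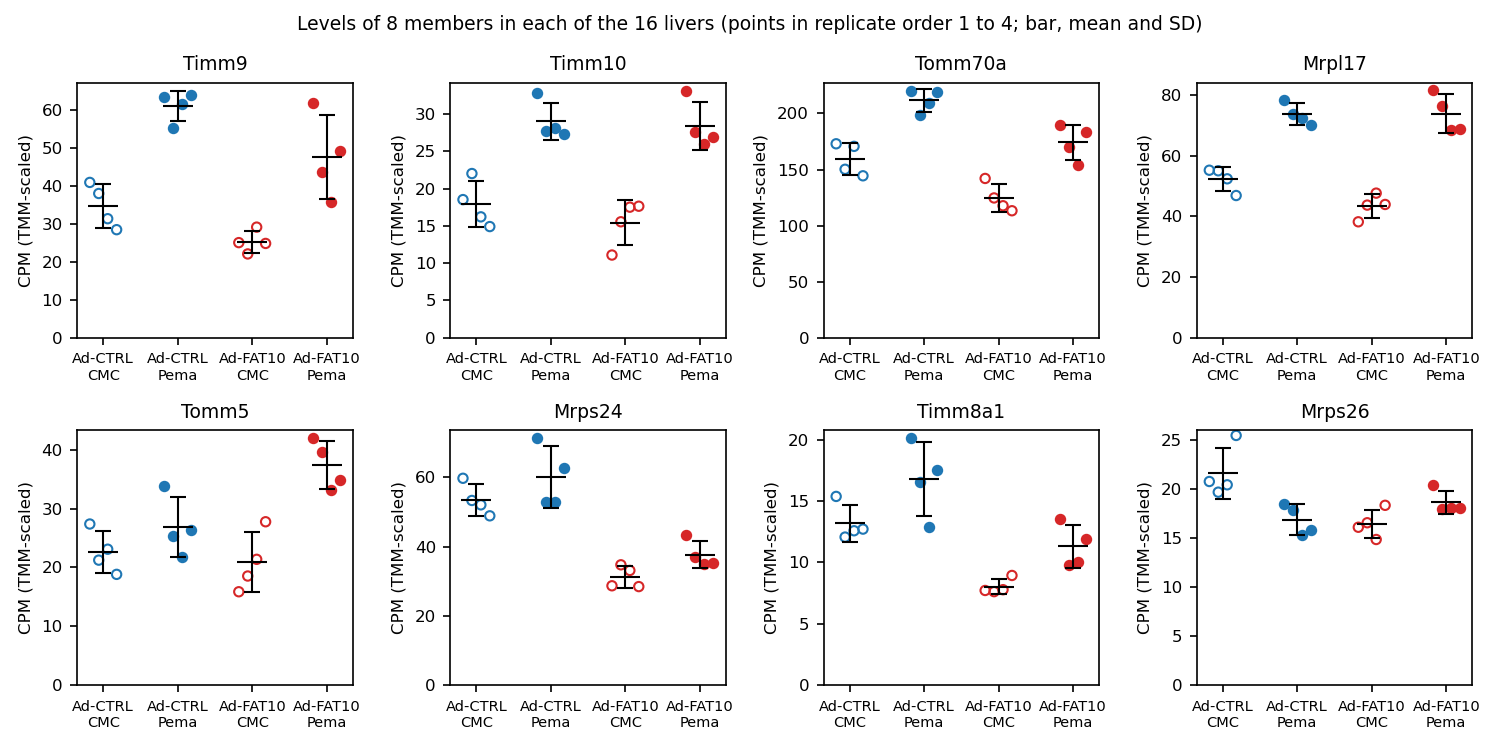
CPM of 8 members (y axes, from 0) in each of the 16 livers by group (x axes), points in replicate order 1 to 4, with mean and SD (n = 4). Timm9, Timm10, Tomm70a and Mrpl17 are higher in every pemafibrate liver than in any CMC liver of the same virus, and Mrps24, called lower on library totals too, is lower in every Ad-FAT10 liver than in any Ad-CTRL liver (TMM-scaled CPM).

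Timm9, Timm10, Tomm70a and Mrpl17 were among the 16 members called higher with pemafibrate under both viruses. Their promoters are shown, from 250 bases before to 50 after the annotated start, as RefSeq gives them on GRCm38.p6. Capitals mark matches, on either strand, to the motif letters searched: CGCNTGCGC (core of NRF1, a regulator of nuclear genes for mitochondria), CCGGAAGT (ETS factors such as GABPA), ATGGCGGC (YY1), CACGTG (E-box), CCAAT, and AGGTCANAGGTCA with up to 2 mismatches (the direct repeat bound by PPAR with RXR). The windows lie at chr12:71136626-71136925 (minus strand) for Timm9, chr2:84826771-84827070 (plus) for Timm10, chr16:57121464-57121763 (plus) for Tomm70a and chr7:105811038-105811337 (minus) for Mrpl17.
Timm9: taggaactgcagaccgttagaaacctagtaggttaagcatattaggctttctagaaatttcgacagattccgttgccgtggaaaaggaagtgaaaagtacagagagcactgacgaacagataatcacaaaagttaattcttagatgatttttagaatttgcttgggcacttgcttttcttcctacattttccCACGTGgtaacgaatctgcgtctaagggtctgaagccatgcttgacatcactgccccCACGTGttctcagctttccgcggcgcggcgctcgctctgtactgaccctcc
Timm10: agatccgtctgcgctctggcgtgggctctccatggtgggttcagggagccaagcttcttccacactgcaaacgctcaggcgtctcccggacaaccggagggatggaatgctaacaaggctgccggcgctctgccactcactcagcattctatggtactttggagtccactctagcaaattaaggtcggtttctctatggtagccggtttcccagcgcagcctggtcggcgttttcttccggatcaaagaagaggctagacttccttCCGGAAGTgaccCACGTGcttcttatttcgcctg
Tomm70a: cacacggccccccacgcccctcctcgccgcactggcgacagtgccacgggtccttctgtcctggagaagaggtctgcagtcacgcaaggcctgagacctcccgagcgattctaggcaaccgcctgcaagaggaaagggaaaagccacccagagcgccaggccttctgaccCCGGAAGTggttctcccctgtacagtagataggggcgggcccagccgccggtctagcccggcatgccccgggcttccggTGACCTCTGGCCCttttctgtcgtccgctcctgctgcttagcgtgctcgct
Mrpl17: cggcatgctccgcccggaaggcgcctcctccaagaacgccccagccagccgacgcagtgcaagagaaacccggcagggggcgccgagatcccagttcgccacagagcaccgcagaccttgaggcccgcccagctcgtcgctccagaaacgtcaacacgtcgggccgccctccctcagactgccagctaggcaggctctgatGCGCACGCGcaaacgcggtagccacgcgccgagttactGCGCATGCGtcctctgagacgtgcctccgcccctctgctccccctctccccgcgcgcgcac

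Timm9 holds 2 E-boxes, the second of which spans the start. Timm10 holds an ETS match and an E-box, both after the start. Tomm70a holds an ETS match and, across the start, a direct repeat match. Mrpl17 holds 2 NRF1 matches, the nearer one 11 bases before the start. These windows do not stand for all 16 members that rose under both viruses. Among the others, Mrps10 and Mrps17 matched CCAAT alone, while Mrpl45 held NRF1 matches and Mrpl52 an ETS match. RefSeq windows were found for 92 members, 100 windows in all. The NRF1 core was found in 19.0% of them and in 6.25% of all 32851 windows, the ETS motif in 18.0% and 3.89%, the YY1 motif in 14% and 2.24%, the E-box in 13.0% and 7.15%, CCAAT in 37.0% and 37.4%, and the direct repeat in 4.00% and 3.86%. Median GC content was 58.5% in member windows and 52.7% in all windows, and the median number of CG pairs was 21 and 7. Both bear on how often GC-rich letters occur. The NRF1, ETS, YY1 and E-box letters each contain CG, and CCAAT does not. The motif shares were not compared with windows of like CG content. The direct repeat matches were in the windows of Tomm70a, Timm13, Mrpl11 and Mrps36. These counts describe letters in a window and do not show that a factor binds there.

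Ad-FAT10 against Ad-CTRL under CMC gave 50 members lower and none higher relative to a typical gene (edgeR, TMM scaling; 2 were higher at an unadjusted p under 0.05, and limma-voom and DESeq2 called 0 higher). With library totals in place of TMM the median of all genes tested moved from -0.01 to 0.28, and 13 members were then called higher and 3 lower. The median log2 change of members minus that of all genes was -0.25, and 86 of the 99 members lay below the median gene. A change of scaling moves all genes nearly alike, so it leaves this distance in place by construction and does not test it. As a share of all counts the members made up 0.310% ± 0.0139 in Ad-CTRL CMC livers and 0.319% ± 0.0286 in Ad-FAT10 CMC livers (SD, n = 4), with overlapping ranges. The falls below are given on the TMM scale, relative to the typical gene of these livers. On that scale 20.2% of all genes tested were called lower and 22.5% higher, against 50.5% and 0% of the members.

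**Figure D4:**
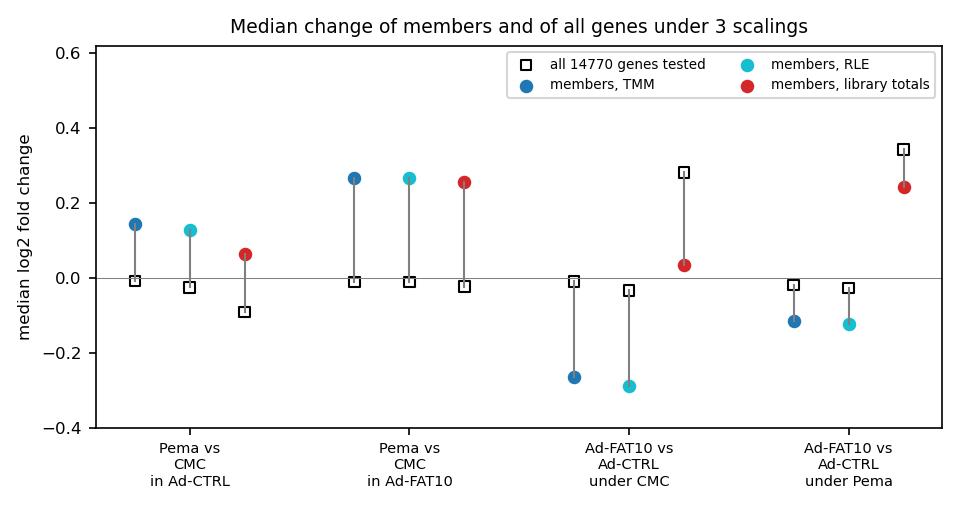
Median log2 fold change (y axis) of the 99 tested members (filled circles, by scaling) and of all 14770 genes tested (open squares) in the 4 comparisons (x axis). Scaling moves both medians of a pair together by construction. In the Ad-FAT10 pairs the members' median lies below 0 with TMM and above 0 with library totals.

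Mrps24, which encodes a small subunit protein, had the most negative change on either scale. It measured 59.7, 53.3, 52.0 and 48.9 CPM in Ad-CTRL CMC livers and 28.7, 34.7, 33.1 and 28.4 CPM in Ad-FAT10 CMC livers, without overlap (log2 -0.78 ± 0.11, adjusted p = 3.57e-05, and -0.49 with library totals, adjusted p = 0.00218). Exons of Mrps24 share 15.4% of their bases with Urgcp on the same strand. Timm8a1, which in humans is the gene of a deafness-dystonia syndrome, went from 15.4, 12.1, 12.6 and 12.7 CPM to 7.70, 7.61, 7.77 and 8.93 CPM (log2 -0.72 ± 0.14, adjusted p = 0.00052, and -0.42 with library totals, adjusted p = 0.0253). Mrps35 measured 30.5, 31.4, 31.4 and 30.04 CPM and then 20.2, 22.0, 20.5 and 22.7 CPM (log2 -0.53 ± 0.09, adjusted p = 0.000113, and -0.24 with library totals, adjusted p = 0.0416). These 3 genes were the ones called lower on both scales.

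On the TMM scale 25 of 50 large subunit genes, 14 of 26 small subunit genes, 4 of 7 TOM genes, 3 of 6 TIM23 genes and 4 of 8 TIM22 and small TIM genes fell. In the large subunit the largest falls were Mrpl9 (log2 -0.57), Mrpl34 (-0.55) and the stalk gene Mrpl12, which measured 126, 137, 142 and 135 CPM in Ad-CTRL CMC livers and 86.4, 101, 93.8 and 95.0 CPM in Ad-FAT10 CMC livers (log2 -0.52 ± 0.12, adjusted p = 0.00186). Mrpl41 (log2 -0.49), Mrpl14 (-0.46), Mrpl23 (-0.45), Mrpl32 (-0.44), Mrpl47 (-0.41), Mrpl15 (-0.40), Mrpl30 (-0.39), Mrpl46 (-0.35), Mrpl51 (-0.33), Mrpl57 (-0.28), Mrps30 (-0.28), Mrpl17 (-0.27), Mrpl24 (-0.26) and Mrpl13 (-0.25) were among the others. With library totals Mrpl13, Mrpl17, Mrpl24, Mrpl57 and Mrps30 lay above 0 and were not called. In the small subunit Mrps33 (log2 -0.49), Mrps25 (-0.41), Mrps26 (-0.39), Mrps14 (-0.38), Mrps27 (-0.38), Mrps9 (-0.36) and Mrps12 (-0.23) fell, of which Mrps12 was above 0 with library totals. The antisense neighbour Nr2c2 covers 69.8% of the exon bases of Mrps25, and how the counting treated strand is not given in the sources used here.

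In the translocases Tomm40l (log2 -0.51), Tomm7 (-0.45), Tomm70a (-0.36) and Tomm20 (-0.32) fell, as did Timm17b (-0.43), Timm21 (-0.41), Timm23 (-0.26), Timm9 (-0.46), Timm8b (-0.39) and Timm13 (-0.33), with Timm23 above 0 and not called on library totals. Nr1i3 lies opposite Tomm40l and covers 64.3% of its exon bases. Tomm40 (log2 -0.01), Tomm22 (-0.06), Tomm5 (-0.11), Timm17a (0.05), Timm50 (0.22, adjusted p = 0.0577), Timm44 (-0.20, adjusted p = 0.0589) and Mrps36 (-0.38, adjusted p = 0.0589) did not pass. The pore gene Tomm40 measured 37.2, 30.8, 32.0 and 40.9 CPM in Ad-CTRL CMC livers and 30.5, 35.2, 34.7 and 39.7 CPM in Ad-FAT10 CMC livers, with overlapping ranges. On library totals Tomm40 was called higher (log2 0.29, adjusted p = 0.0258), as were Timm50 (0.52, adjusted p = 0.0002), Timm29 (0.46), Mrpl3 (0.44) and Timm17a (0.34).

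Single libraries moved the count of falls between 35 and 54, with 35 without Ad-CTRL CMC replicate 1. The calls of Mrps33 and Timm9 were lost without Ad-CTRL CMC replicates 1 or 2 (adjusted p up to 0.0532 and 0.0637), and those of Mrpl17 also without Ad-FAT10 CMC replicate 1 (up to 0.0615). Mrpl13 was not called without Ad-CTRL CMC replicate 1 (0.0548), Mrpl24 without Ad-FAT10 CMC replicate 1 (0.0615) and Mrpl51 without either of these (up to 0.0569). Mrpl57 and Timm23 lost their calls in 4 of 16 such fits (up to 0.0907 and 0.130), Tomm20 and Tomm40l in 5 (up to 0.0707 and 0.156), Timm8b in 8 (up to 0.123), Mrps30 in 9 (up to 0.188) and Mrps12 in 11 (up to 0.170).

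Ad-FAT10 against Ad-CTRL under pemafibrate gave 19 members lower and 2 higher on the TMM scale, and with library totals, where the median gene stood at 0.34, 43 higher and 1 lower. Of all genes tested 20.5% were called lower and 21.2% higher on the TMM scale. The 19.2% of members called lower is near the background, whereas the 2.02% called higher is below it. The median log2 change was -0.12 over the members and -0.02 over all genes, and 65 of the 99 members lay below the median gene. The members' share of counts was 0.329% ± 0.0347 in Ad-CTRL Pema livers and 0.387% ± 0.0292 in Ad-FAT10 Pema livers (SD, n = 4), with ranges that overlap.

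Mrps24 again had the most negative change, with 71.4, 52.9, 52.8 and 62.7 CPM in Ad-CTRL Pema livers and 43.3, 36.9, 35 and 35.3 CPM in Ad-FAT10 Pema livers. The groups did not overlap (log2 -0.67 ± 0.11, adjusted p = 0.000127), and Mrps24 was the 1 member called lower on library totals too (log2 -0.32, adjusted p = 0.0270). Mrpl34 measured 32.9, 25.5, 29.4 and 27.7 CPM and then 25.4, 16.4, 15.1 and 16.8 CPM, with replicate 1 of the second group just below the lowest control (log2 -0.65 ± 0.14, adjusted p = 0.00133). Timm8a1 had a log2 of -0.57 ± 0.13 (adjusted p = 0.00258). Further falls were Mrpl42 (log2 -0.42), Mrps33 (-0.41), Timm8b (-0.41), Mrpl9 (-0.37), Mrpl12 (-0.36), Mrpl41 (-0.35), Mrps25 (-0.32), Mrpl24 (-0.30), Mrpl37 (-0.30), Timm17b (-0.29), Tomm70a (-0.28), Mrpl13 (-0.22) and Mrps9 (-0.20). Of these Mrpl13, Mrpl24, Mrpl37, Mrpl41, Mrps9, Mrps25, Timm17b and Tomm70a were above 0 with library totals.

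Tomm5 and Mrpl3 were the members called higher. Tomm5 measured 33.9, 25.4, 21.7 and 26.3 CPM in Ad-CTRL Pema livers and 42.0, 39.6, 33.3 and 34.9 CPM in Ad-FAT10 Pema livers, so that replicate 1 of the former lies within the range of the latter (log2 0.48 ± 0.16, adjusted p = 0.0222). Mrpl3 had a log2 of 0.23 ± 0.08 (adjusted p = 0.0281), without overlap of the groups. Both calls failed without Ad-FAT10 Pema replicate 1 and in 5 and 4 of 16 leave-out fits in all (adjusted p up to 0.0775 and 0.0821). The 2 virus comparisons share no library. Of the 19 members called lower under pemafibrate, 17 (89.5%) were also called lower under CMC, where they were 34.0% of the 50, and Mrpl37 and Mrpl42 were the exceptions. Over all genes tested, 1987 were called lower in both, which is 65.7% of the 3024 called under pemafibrate and 66.7% of the 2977 called under CMC.

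The count of 19 depended on single libraries. It was 33 without Ad-FAT10 Pema replicate 1, 9 without Ad-CTRL Pema replicate 1 or Ad-FAT10 Pema replicate 3, 10 without Ad-FAT10 Pema replicate 2 and 11 without Ad-FAT10 Pema replicate 4. In such fits the calls of Mrpl12 and Mrpl13 failed in 3 of 16 (adjusted p up to 0.0884 and 0.0809), of Tomm70a in 4 (up to 0.0875), of Mrpl41, Mrps33 and Timm8b in 5 (up to 0.156, 0.175 and 0.131), of Timm17b in 6 (up to 0.0915) and of Mrps9 in 8 (up to 0.144). Replicate 1 stood highest of the Ad-FAT10 Pema livers and replicate 1 lowest of the Ad-FAT10 CMC livers in the mean level of each complex. For the large subunit the mean log2 CPM of its 50 genes was 4.53, 4.68, 4.74 and 4.74 in Ad-FAT10 CMC livers and 5.13, 4.90, 4.78 and 4.87 in Ad-FAT10 Pema livers. The 78 tested genes of the cytosolic ribosome showed the same pair at the ends, at 6.70 in replicate 1 of Ad-FAT10 CMC and 7.43 in replicate 1 of Ad-FAT10 Pema.

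**Figure D5:**
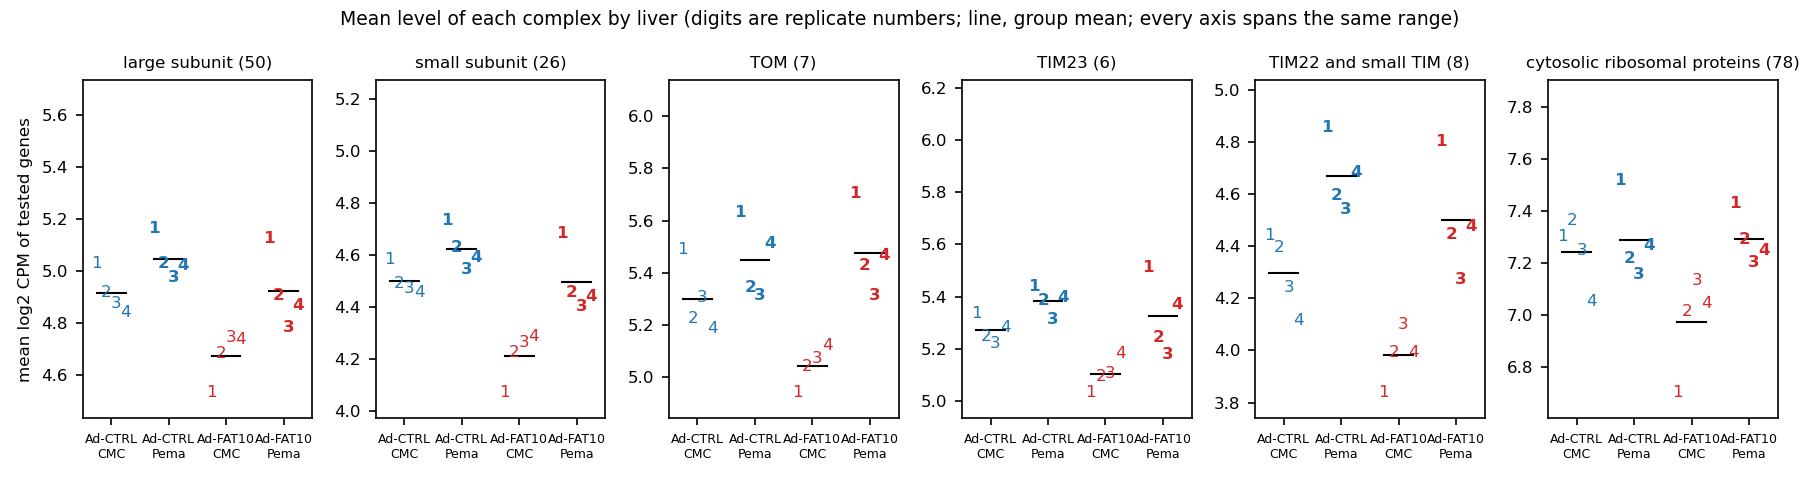
Mean log2 CPM (TMM-scaled, y axes, each spanning the same range) of the tested genes of each complex and of the cytosolic ribosome in every liver, by group (x axes). Digits are replicate numbers and lines group means. Replicate 1 is lowest in Ad-FAT10 CMC and highest in Ad-FAT10 Pema in all 6 panels.

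The interaction asks whether the pemafibrate response differed between Ad-FAT10 and Ad-CTRL livers. No member was called (edgeR, 9 at an unadjusted p under 0.05; limma-voom called 0 and DESeq2 1), and 0.156% of all genes were. The median difference in log2 response was 0.15 over members and -0.01 over all genes. With 1 library left out the members' median ran from 0.06 to 0.19. Of the 99 members 83 lay above 0, but they were measured in the same livers and are not independent. For the 78 cytosolic ribosomal protein genes the median difference was 0.27, with 75 above 0. The smallest p was that of Mrps26, whose log2 change was -0.36 in Ad-CTRL livers and 0.18 in Ad-FAT10 livers, a difference of 0.53 ± 0.14 (adjusted p = 0.169). Mrps27 (difference 0.39 ± 0.12, adjusted p = 0.215) and Mrpl14 (0.52 ± 0.17, adjusted p = 0.257) came next. For Tomm5 the difference was 0.59 ± 0.23 (adjusted p = 0.361).

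Mrps27, Mrpl14, Timm13 and Tomm7 were among the members lower with Ad-FAT10 under CMC on the TMM scale and higher with pemafibrate in Ad-FAT10 livers. These comparisons share the Ad-FAT10 CMC livers, so a low reading there moves both. Mrps27 measured 16.1, 16.8, 16.1 and 16.5 CPM in Ad-CTRL CMC livers, 16.2, 16.6, 15.8 and 15.9 in Ad-CTRL Pema, 12.5, 12.0, 12.4 and 13.4 in Ad-FAT10 CMC and 18.5, 15.4, 16.2 and 14.9 CPM in Ad-FAT10 Pema livers. On the TMM scale the Ad-FAT10 CMC livers lay below the other groups. With library totals Mrps27 was not called lower with Ad-FAT10 under CMC (log2 -0.09, adjusted p = 0.441) and was called higher with Ad-FAT10 under pemafibrate (log2 0.37, adjusted p = 0.00214), so that which group stands apart depends on the scaling.

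Paralogs were compared by the log2 ratio of their CPM within each liver. Scaling cancels from this ratio except through the prior count of 2 added before the logarithm, which weighs most for genes with few counts. Over 5 pairs and 4 comparisons no difference passed (20 exact two-sided permutation tests over 70 assignments, smallest possible p 0.0286, smallest adjusted p 0.114). With this smallest p and 20 tests, no pair could pass after adjustment unless most of the 20 reached it. The outcome therefore gives no ground to call any ratio unchanged. The ratio of Timm17a to Timm17b, alternative subunits of TIM23, stood under CMC at -0.10 ± 0.34 with the control virus and 0.36 ± 0.06 with Ad-FAT10, and under pemafibrate at 0.19 ± 0.11 and 0.61 ± 0.04 (SD, n = 4). It was higher with Ad-FAT10 without overlap under either treatment, by 0.46 under CMC (0.30 without Ad-CTRL CMC replicate 4) and 0.41 under pemafibrate (each exact p = 0.0286, adjusted p = 0.114). The ratio of Timm10 to Timm10b was 3.28 ± 0.19 under CMC and 4.12 ± 0.16 under pemafibrate in Ad-CTRL livers (difference 0.84, exact p = 0.0286, adjusted p = 0.114). Timm10b stood at a mean of 1.57 CPM over the 16 livers.

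Partners of the import machinery outside the rule were followed in a list of 22 genes. Pemafibrate raised 9 of them in Ad-CTRL livers and 14 in Ad-FAT10 livers, and lowered none in either. Of all genes tested, 16.2% were called higher and 14.4% lower in Ad-CTRL livers, and 12.9% and 12.5% in Ad-FAT10 livers. The largest rises among the 22 were in the matrix chaperone system. Grpel2, a nucleotide exchange factor of mitochondrial HSP70, went from a mean of 58.2 CPM under CMC to 161 CPM under pemafibrate in Ad-CTRL livers and from 36.6 to 99.2 CPM in Ad-FAT10 livers, log2 changes of 1.47 ± 0.13 and 1.44 ± 0.13 with pemafibrate (adjusted p = 1.34e-07 and 2.71e-07). The chaperonin genes Hspd1 (log2 1.05 and 1.02) and Hspe1 (0.93 and 1.01) rose as well. With Ad-FAT10 on the TMM scale, 13 of the 22 fell and none rose under CMC, and 8 fell and 1 rose under pemafibrate, while library totals gave 4 higher and 3 lower, then 6 higher and 1 lower. All genes tested gave 20.2% lower and 22.5% higher under CMC, and 20.5% and 21.2% under pemafibrate (TMM scale). Romo1, a subunit linked to TIM23, had -0.73 under CMC, and Immp2l, of the inner membrane peptidase, -0.71 under CMC and -0.59 under pemafibrate (both TMM scale).

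Of 35 factors that assemble or serve the mitochondrial ribosome, 7 rose with pemafibrate under the control virus and 12 in Ad-FAT10 livers. All genes tested gave 16.2% and 12.9% called higher, so the 7 of 35 is near the background. The factors that rose included the elongation factor gene Gfm1 (log2 0.70 and 0.57) and the assembly genes Mterf4 (0.71 and 0.78) and Ddx28 (0.51 and 0.63). With Ad-FAT10, 11 fell and 1 rose under CMC and 9 fell and 2 rose under pemafibrate on the TMM scale, against 1 lower and 12 higher, then 0 lower and 15 higher, with library totals. On the TMM scale all genes tested gave 20.2% lower and 22.5% higher under CMC, and 20.5% and 21.2% under pemafibrate. Chchd1, a protein of the small subunit outside the symbol rule, had -0.68 and -0.45, and Trub2, a pseudouridine synthase, 0.27 and 0.61. Among 18 regulators of mitochondrial biogenesis and stress, 6 rose and 1 fell with pemafibrate in Ad-CTRL livers, and 5 rose and 1 fell in Ad-FAT10 livers. With Ad-FAT10, 1 rose and 3 fell under CMC and 3 rose and 4 fell under pemafibrate on the TMM scale, against 7 higher and 1 lower, then 10 higher and 1 lower, with library totals. The falls of regulators on the TMM scale are near the shares of all genes given above. Tfam, which packages mitochondrial DNA, rose with pemafibrate in Ad-CTRL and Ad-FAT10 livers (log2 0.53 and 0.47), and Ppargc1a fell in both (-0.74 and -0.68). Atf5, of the mitochondrial unfolded protein response, rose with pemafibrate in both (0.36 and 0.77) and fell with Ad-FAT10 under CMC on the TMM scale (-0.69).

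Of the mRNAs that the mitochondrial ribosome translates, 12 were tested, and none was called for pemafibrate under either virus (edgeR). Their medians were -0.17 and -0.18, against 0.14 and 0.27 for the members. The SD of their mean log2 CPM was 0.25 and 0.12 in Ad-CTRL CMC and Pema livers, and 0.09 and 0.50 in Ad-FAT10 CMC and Pema livers. Whether these mRNAs and the members differ in response was not tested. With Ad-FAT10, 9 of 12 fell under CMC and 11 of 12 under pemafibrate on the TMM scale, with medians of -0.76 and -0.82, and 5 of 12 under each with library totals, with medians of -0.46 and -0.46. They have short poly(A) tails, and poly(A) selection may capture them unevenly. Genes of the cytosolic ribosome gave 3 called higher and 1 lower of 78 with pemafibrate in Ad-CTRL livers (median 0.04; 0 higher and 2 lower, median -0.03, with library totals) and 32 higher and none lower in Ad-FAT10 livers (median 0.30). With Ad-FAT10 they gave 27 lower under CMC (median -0.27) and none called under pemafibrate (edgeR, median -0.02) on the TMM scale, against 4 higher and 1 lower, then 48 higher, with library totals. Over all genes tested, 16.2% and 12.9% were called higher with pemafibrate in Ad-CTRL and Ad-FAT10 livers. With Ad-FAT10, 20.2% were called lower under CMC and 20.5% under pemafibrate (TMM scale).

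Cell type markers moved with the virus comparisons. Among all genes tested, 22.5% were called higher and 20.2% lower with Ad-FAT10 under CMC (TMM scale). Under CMC, 6 of 8 hepatocyte markers fell, and their summed level ran from 83207 to 111112 CPM in Ad-CTRL livers and from 56817 to 67311 CPM in Ad-FAT10 livers. All 6 tested neutrophil markers rose (summed level of 7 genes, 7.82 to 16.3 CPM against 38.1 to 93.5 CPM), as did 6 of 7 macrophage and monocyte markers (172 to 239 against 382 to 497 CPM), 6 of 8 T and NK cell markers (13.5 to 29.8 against 40.0 to 53.4 CPM) and 6 of 6 cycling cell markers (32.3 to 42.7 against 194 to 273 CPM). Kupffer cell markers gave 1 higher and 4 lower of 5, endothelial markers 3 lower of 5, B and plasma cell markers 4 lower of 5, cholangiocyte markers 1 higher of 4, and stellate and fibroblast markers 3 lower of 5 (1 higher and 1 lower with library totals). For the other lists library totals left the balance of calls on the same side, with 5 of 8 hepatocyte markers lower. Pemafibrate in Ad-FAT10 livers lowered 6 of 6 neutrophil and 4 of 6 cycling cell markers, and 5 of 8 hepatocyte markers fell with the drug under each virus. With the drug, 14.4% of all genes tested were called lower in Ad-CTRL livers and 12.5% in Ad-FAT10 livers. No marker was at 0 in all 16 libraries. The part of these shifts in the member values was not tested.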

How the data were processed

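The deposited files hold raw read counts per gene for 16 liver libraries, as the authors made them. The submitters' processing notes name GRCm39 as build and, among tools, STAR 2.7.6 and DESeq2 as 2.11.40.6 and as 1.36.0. Which program, gene annotation and strand option did the counting is not given in the sources used here. Per the labels' protocols, mRNA was captured with oligo dT and libraries were made with dUTP.

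Counts of all genes were fitted together with edgeR 4.0.16 (filterByExpr, TMM, quasi-likelihood F test, 1 mean per group, 12 residual degrees of freedom), and p-values were adjusted by Benjamini-Hochberg over the 14770 genes tested, with a threshold of 0.05. SE is the log2 change divided by the square root of F and restates the test. The biological coefficient of variation was 0.151. Library totals make 3 counts worth 0.104 to 0.161 CPM, the floor for counting error only. Replicates are separate libraries of a group and the labels do not say whether spread is between animals alone. Paralog ratios were tested by exact permutation (scipy 1.17.1). Fits were checked on simulated counts. Gene names and exon lengths came from GENCODE M21, promoters from RefSeq on GRCm38.p6, and no coordinates of the counts' build were used.

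The members and gene lists were chosen with earlier results of these data known. Genes named were the core translocase and ribosome genes, the largest changes and smallest p of each comparison and role, members that passed in opposite directions, and members too low to test. Alternatives were RLE scaling, library totals, library sizes without mitochondrially encoded genes, no filter, limma-voom 3.58.1, DESeq2 1.42.0, fits of the compared groups alone, a replicate block and leaving out each library. Leaving out both Ad-FAT10 Pema replicates 1 and 3 was added after seeing the data.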

Additional observations from a re-analysis of the deposited data

Results flagged for a closer look

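In 14 of 256 groups of 4 livers (5.47%), 1 liver stood far from the other 3 by Dixon's criterion, which chance alone meets in about 1 of 20 groups. In Ad-CTRL Pema livers replicate 1 was the high one for Mrpl13 (49.6 CPM, others 43.2 to 44.2), Mrpl30 (80.6 CPM, others 66.7 to 68.7), Mrps22 (33.8 CPM, others 25.9 to 26.6), Timm10 (32.8 CPM, others 27.3 to 28.2) and Tomm7 (46.0 CPM, others 36.1 to 37.4). In Ad-FAT10 Pema livers replicate 1 was the high one for Mrpl34 (25.4 CPM, others 15.1 to 16.8), Mrpl47 (22.1 CPM, others 15.6 to 16.4), Mrpl9 (36.6 CPM, others 28.7 to 29.8) and Mrps26 (20.4 CPM, others 18.0 to 18.1).

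In Ad-CTRL CMC livers replicate 4 was low for Mrps14 (26.9 CPM, others 34.5 to 35.5) and high for Timm17b (51.0 CPM, others 36.6 to 38.3), and replicate 1 was high for Tomm22 (64.6 CPM, others 53.0 to 54.7). In Ad-FAT10 CMC livers replicate 4 was high for Timm8a1 (8.93 CPM, others 7.61 to 7.77) and replicate 1 low for Tomm7 (20.2 CPM, others 25.9 to 26.7).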

How the results depend on the processing

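Of 107 calls of named members, 67 passed in each of the 16 fits that leave out 1 library and 40 failed in at least 1. RLE scaling, DESeq2 and library sizes without mitochondrially encoded genes kept all 107, limma-voom 103, the compared groups alone 99, no filter on low counts 83 and library totals 49. Library totals turned 15 falls with Ad-FAT10 to values just above 0, as scaling sets the zero point: under CMC Mrpl13 (0.0432), Mrpl17 (0.0218), Mrpl24 (0.0318), Mrpl57 (0.0102), Mrps12 (0.0641), Mrps30 (0.0138) and Timm23 (0.0336), and under pemafibrate Mrpl13 (0.138), Mrpl24 (0.0565), Mrpl37 (0.0567), Mrpl41 (0.00397), Mrps9 (0.155), Mrps25 (0.0349), Timm17b (0.0654) and Tomm70a (0.0785). Library totals gave 9 members higher with pemafibrate in Ad-CTRL livers and 37 in Ad-FAT10 livers. With Ad-FAT10 they gave 13 higher and 3 lower (median 0.0336) under CMC, and 43 higher and 1 lower (median 0.244) under pemafibrate. Without a filter Ad-FAT10 under pemafibrate gave 1 higher and 11 lower. With both Ad-FAT10 Pema replicates 1 and 3 left out, pemafibrate in Ad-FAT10 livers gave 23 higher and Ad-FAT10 under pemafibrate 0 higher. DESeq2 called 1 member in the interaction.

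Leaving out 1 library gave 12 to 24 higher and 1 to 2 lower for pemafibrate in Ad-CTRL livers, 28 to 50 higher in Ad-FAT10 livers, 0 to 1 higher and 35 to 54 lower for Ad-FAT10 under CMC, and 0 to 4 higher and 9 to 33 lower under pemafibrate. Paralog ratios, none of which passed, changed sign for Timm8a1 to Timm8b with pemafibrate in Ad-CTRL livers (-0.0504 to 0.149), Mrps18b to Mrps18c in Ad-FAT10 livers (-0.0156 to 0.0807) and with Ad-FAT10 under pemafibrate (-0.0991 to 0.170, with -0.0309, -0.00541 and -0.0014 between), and Timm10 to Timm10b there (-0.0861 to 0.0322, with 0.0144 between).

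With the replicate number as a block the counts were 17 higher and 2 lower, 40 higher, 47 lower, and 2 higher and 20 lower in the 4 comparisons. Same-numbered libraries did not deviate together (24 pairs, correlation -0.172 to 0.172, 3 above 0.1). This check gives no sign of pairing by number but cannot show whether same-numbered mice were handled together.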
